A study of Homo sapiens with 6 samples.

Results

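Regions of open chromatin assigned to zinc finger genes are described here in human multiple myeloma cell lines exposed to JQ1. A region was a member if the protein-coding gene that contained it, or otherwise the nearest by gene body, had a symbol beginning with ZNF, ZFP, ZBTB or ZSCAN. This gave 55 of 3838 regions (1.43%), at 48 genes. The rule used gene symbols and positions and no measured value. ATAC-seq, in which a transposase cuts accessible DNA, had been run on KMS-11, KMS-12 and RPMI8226, all unmodified (genotype WT) lines. Each line gave 1 library with DMSO, the solvent, and 1 library with JQ1 at 1 µM for 72 h, so there were 6 libraries in 2 groups of 3. The compound JQ1 occupies the bromodomains of BET proteins and releases them from acetylated chromatin.

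Zinc finger proteins of the C2H2 type bind DNA through arrays of small domains, each folded around a zinc ion. Many carry a KRAB domain, which recruits the corepressor TRIM28 and with it heterochromatin, often at transposable elements. ZBTB proteins carry a BTB/POZ domain, which forms dimers and binds corepressors such as NCOR and BCOR, and several of them direct lymphocyte development. ZSCAN proteins carry a SCAN domain for pairing with each other. A few genes with these prefixes encode other kinds of protein, such as ZNFX1, an RNA helicase. A gene name below says where a region lies. Expression was not analysed here.

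The values are log fold changes per line from the authors' deposited table, read as log2 of JQ1 over DMSO, since its header gives neither base nor direction. Every fold in the table is below 0, and each region is at or below -0.5 in 2 or 3 lines, so the table holds selected regions of 1 direction. That this is lower accessibility with JQ1 rests on the assumed direction, here and below. A lower value at a member is therefore no finding by itself. What can be described is which zinc finger genes have a region, how low it is, and how the lines differ. With 1 library per line and treatment no fold within a line has a replicate, depth is unknown, and the 3 lines serve as the replicates of the treatment. The labelled cell type could not be checked against marker genes, because a table of selected regions gives no expression. Many folds recur to the last deposited digit: 30 of the 55 members (54.5%) had a KMS-11 value found in at least 10 regions, against 41.3% of all regions. The same held for 30 members (54.5%) in KMS-12, against 52.3%, and for 6 (10.9%) in RPMI8226, against 7.58%. The other 16 members, with both KMS values found in fewer than 10 regions, had a median mean of -0.76, and 1 of them was at or below -0.5 in all lines. Over all 1301 such regions 21.4% were.

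Among the 37 members whose gene had a listed start, those at ZFP3 and ZNF875 reached into the promoter. These promoter sequences are shown because the data touch the gene's own start there. ZFP3 encodes a C2H2 zinc finger protein, and its region (chr17:5078432-5078849) overlapped the gene's upstream end, with its midpoint 0.174 kb after the listed start. ZNF875 encodes a KRAB zinc finger protein, and its region (chr19:37334578-37334852) was centred 0.066 kb after a start listed inside the gene. Both sequences are RefSeq promoter windows on GRCh38.p14, plus strand, from 250 bases before to 50 after the start. Capitals mark the bases that the accessible region covered, 85 of 300 for ZFP3 (chr17:5078217-5078516) and 121 of 300 for ZNF875 (chr19:37334399-37334698).
ZFP3: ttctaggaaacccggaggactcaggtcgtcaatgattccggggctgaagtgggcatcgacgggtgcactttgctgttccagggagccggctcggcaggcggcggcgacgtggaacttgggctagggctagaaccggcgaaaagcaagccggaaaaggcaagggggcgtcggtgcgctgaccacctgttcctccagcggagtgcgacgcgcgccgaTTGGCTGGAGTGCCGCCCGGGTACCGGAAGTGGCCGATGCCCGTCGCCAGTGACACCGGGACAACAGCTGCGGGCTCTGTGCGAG
ZNF875: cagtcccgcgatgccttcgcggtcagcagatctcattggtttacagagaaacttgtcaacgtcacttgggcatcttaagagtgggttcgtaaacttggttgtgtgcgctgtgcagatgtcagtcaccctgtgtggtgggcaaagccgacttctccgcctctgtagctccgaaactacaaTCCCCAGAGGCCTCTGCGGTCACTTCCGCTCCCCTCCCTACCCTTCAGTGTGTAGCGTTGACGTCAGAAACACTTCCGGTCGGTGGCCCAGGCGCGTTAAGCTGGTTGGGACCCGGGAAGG

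The windows were searched on both strands for CCGGAA, a core recognised by ETS factors such as FLI1, which the series title names, with its reverse complement. They were searched likewise for the GC box (GGGCGG), for the CCAAT box, named by its letters, and for the TATA box (TATAAA). ZFP3 held 3 matches to CCGGAA, of which the match at bases -12 to -7 (the start counted as 0) lay in the covered part. ZNF875 held 1 match, at bases 2 to 7 and in the covered part. CCGGAA was present in 41.2% of 775 zinc finger windows and in 17.2% of all 34796 different windows of that length. ZFP3 also held 1 GC box, which 59.6% of zinc finger windows and 44.9% of all windows had, while ZNF875 held 0. Each window had 1 CCAAT match (42.1% of zinc finger and 34.6% of all windows) and 0 TATAAA matches (4.77% and 11.6%). None of these matches overlapped another of these motifs. The windows were also searched for TGACG, with its reverse complement, and for CACGTG. ZFP3 held 1 match to TGACG and ZNF875 held 3. This motif was present in 33.4% of zinc finger and 24.5% of all windows. In the covered part of ZNF875, matches to TGACG on both strands overlapped each other within the letters TGACGTCA. CACGTG had 0 matches in either window (5.81% of zinc finger and 7.20% of all windows). A match describes letters and shows no binding.

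In the authors' deposited table the ZFP3 region had -0.79 (KMS-11), -0.91 (KMS-12) and -0.15 (RPMI8226). For ZNF875 the authors' deposited table gave -0.79 (KMS-11), -0.66 (KMS-12) and -0.14 (RPMI8226). Both were lower in the KMS lines and near 0 in RPMI8226. The KMS values recur, however: the KMS-11 value was the same at both and is found in 178 regions. The KMS-12 values are found in 213 regions (ZFP3) and 175 regions (ZNF875). The pair of KMS values at ZNF875 also stood at ZBTB40, and in 9 regions in all. The means were -0.62 ± 0.41 for ZFP3 and -0.53 ± 0.34 for ZNF875 (SD, n = 3 lines), weaker than the median of all regions, -0.71.

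Across the 55 members the mean over lines ran from -1.36 at ZBTB9 to -0.45 at ZNF217. Their median was -0.75, a JQ1 to DMSO ratio of 0.593 in the assumed direction, beside -0.71 and a ratio of 0.612 for all 3838 regions. The quartiles of the members were -0.87 and -0.60, and those of all regions -0.86 and -0.59. In 12 members (21.8%) all 3 lines were at or below -0.5, against 24.8% of all regions, and in 5 (9.09%) the mean was at or below -1, against 12.3%. By limma, 50 members (90.9%) passed a Benjamini-Hochberg adjusted p of 0.05 for a mean below 0, against 87.5% of all regions. These shares are near those of the whole table and are not read as results about zinc finger genes. The limma test moreover repeats the selection of the table. It gave every region the same standard error, so a call reflects the mean and not how alike the lines were.

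**Figure D1:**
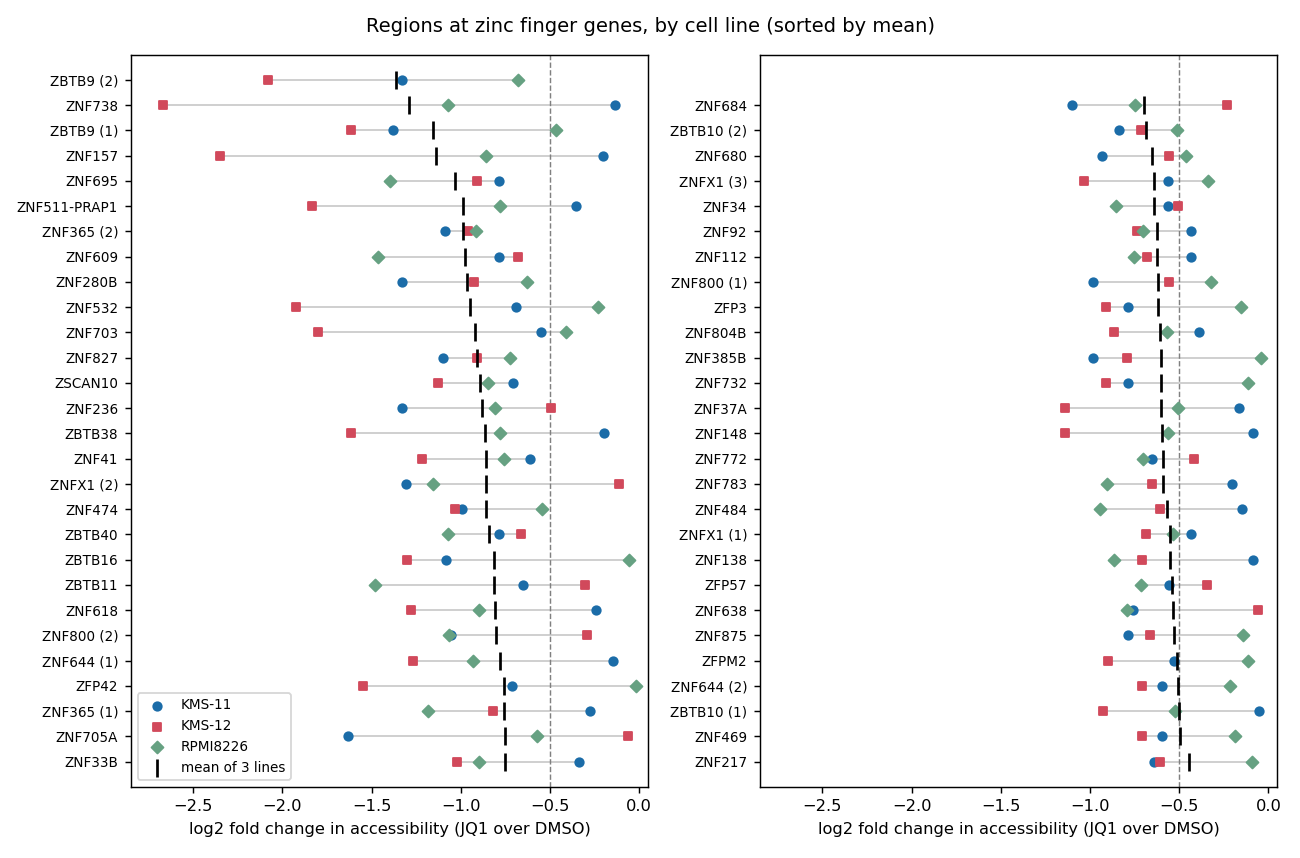
Log2 fold change of accessibility (JQ1 over DMSO, x axis) at each of the 55 regions, sorted by mean, with 1 symbol per cell line, a bar at the mean and a grey line over the range; where a gene has several regions they are numbered along the chromosome. The dashed line marks -0.5, and no member has all 3 lines at or below -1.

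KMS-12 was the line with the lowest fold in 28 members (50.9%), RPMI8226 in 14 (25.5%) and KMS-11 in 13 (23.6%). Over all regions these shares were 44.6%, 23.3% and 32.1%. By the authors' deposited table the median of the members was -0.86 in KMS-12, -0.71 in RPMI8226 and -0.65 in KMS-11. For all regions the medians in the authors' deposited table were -0.79, -0.61 and -0.71, so KMS-11 and RPMI8226 changed places. The difference between lines was not tested, since each line had 1 library per treatment. Among the 43 members shared by 2 lines, the line above -0.5 was KMS-11 in 18 (41.9%), RPMI8226 in 16 (37.2%) and KMS-12 in 9 (20.9%). Over all regions shared by 2 lines that line was KMS-11 in 30.0%, RPMI8226 in 42.8% and KMS-12 in 27.2%.

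**Figure D2:**
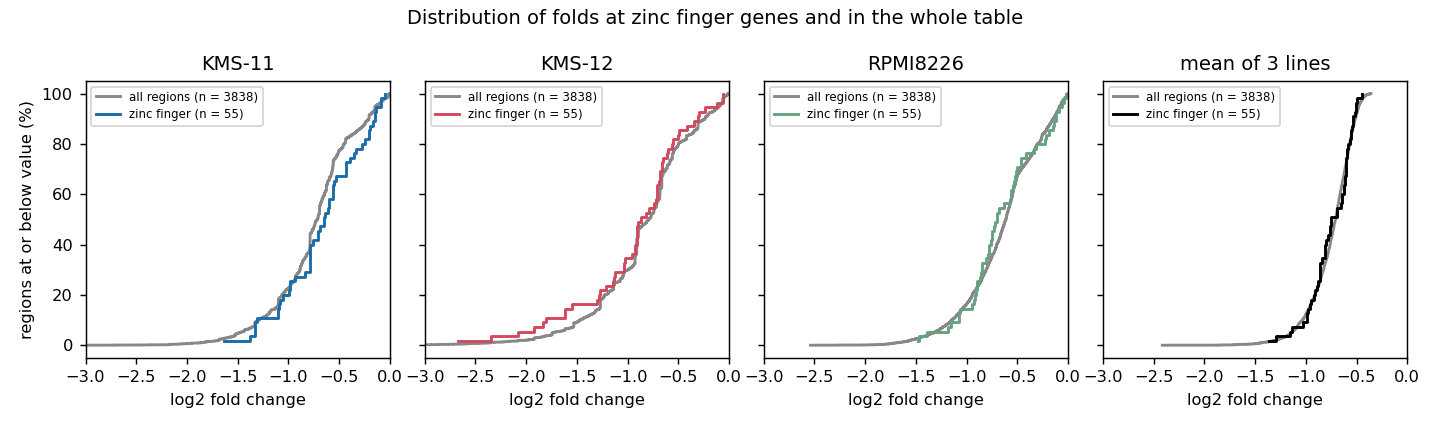
Cumulative share of regions (y axis, percent) at or below each log2 fold change (x axis), for the 55 zinc finger regions and all 3838 regions, per line and for the mean of 3 lines. The x axis stops at -3, and the curves of the mean run close together, with medians of -0.75 and -0.71.

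Zinc finger genes make up 605 of the 20052 protein-coding genes of the gene table (3.02%), and 48 of them (7.93%) were assigned a region, against 14.4% of all protein-coding genes. On chromosome 19, where these genes stand in large clusters of related copies, lay 4 of the 55 regions (7.27%). Of all 3838 regions, 70 (1.82%) lay there. Chromosome 19 holds 265 of the 605 zinc finger genes (43.8%), and 4 of these 265 (1.51%) had a region: ZNF738, ZNF112, ZNF772 and ZNF875. Of the other 1186 protein-coding genes of chromosome 19, 62 (5.23%) had a region. Elsewhere the shares were 44 of 340 zinc finger genes (12.9%) and 2774 of 18261 other genes (15.2%). Gene length was similar, with medians of 23.4 kb for zinc finger genes on chromosome 19 and 24.7 kb for those elsewhere. The 48 genes with a region were longer, at a median of 43.8 kb. The sources used here name no aligner and do not say how reads that map to several gene copies were handled. The part of read mapping or of gene density in these shares was not tested.

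**Figure D3:**
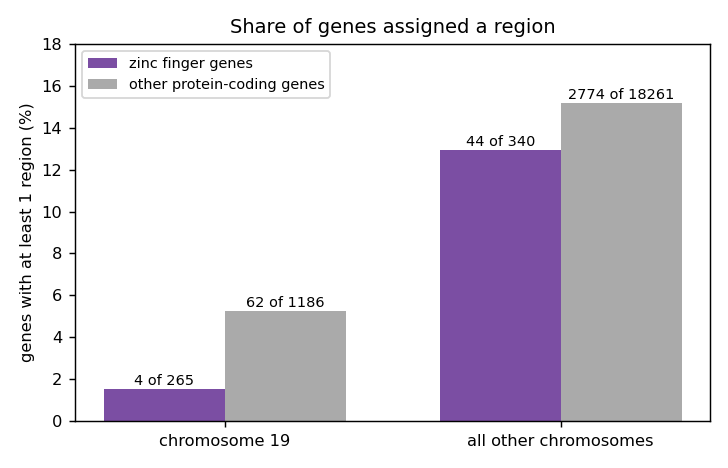
Share of genes assigned at least 1 region (y axis, percent) on chromosome 19 and on all other chromosomes, for zinc finger genes and other protein-coding genes, with counts above the bars. Zinc finger genes on chromosome 19 have the lowest share, 4 of 265.

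Of the 55 regions, 19 (34.5%) lay inside a zinc finger gene, 1 overlapped the end of a gene and 35 (63.6%) lay outside, at a median of 36.2 kb. Over all regions, 46.0% were inside a protein-coding gene. The 19 were 1.08% of the 1765 regions inside genes, while zinc finger genes take up 2.00% of the summed length of protein-coding genes. Regions inside had a median mean of -0.76 and those outside -0.75. Of 37 members whose gene had a listed start, 2 were centred within 1 kb of it and 8 within 10 kb. Of the 35 regions outside, 8 overlapped a lncRNA gene, and 7 were over 100 kb from their gene. The farthest were 663 kb from ZNF33B (chr10:41910652-41911031) and 379 kb from ZNF37A (chr10:38528929-38529620). At such distances the gene name is only the nearest label.

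The lowest member was at ZBTB9, a BTB zinc finger gene, with a pair of regions 50.3 kb (chr6:33507819-33508085) and 55.7 kb (chr6:33513233-33513543) beyond the gene, on the side away from its start. They were 5.15 kb apart. For the farther region the authors' deposited table gave -1.33 (KMS-11), -2.08 (KMS-12) and -0.68 (RPMI8226). For the nearer region the authors' deposited table had -1.38, -1.62 and -0.47 in the same order. Both were lowest in KMS-12 and highest in RPMI8226. Their means were -1.36 ± 0.70 and -1.15 ± 0.61 (SD, n = 3 lines).

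The other BTB zinc finger genes had 6 regions, and all 8 BTB regions had a median mean of -0.83. ZBTB38, which encodes a protein that binds methylated DNA, had a region 2.32 kb beyond the gene (chr3:141452107-141452382) with -0.20 (KMS-11), -1.61 (KMS-12) and -0.78 (RPMI8226) in the authors' deposited table. ZBTB16 encodes PLZF, a repressor needed by innate-like T cells and fused to a retinoic acid receptor in some leukaemias. Its region lay inside the gene (chr11:114172726-114173533), and the authors' deposited table gave -1.08 (KMS-11), -1.30 (KMS-12) and -0.06 (RPMI8226). The KMS lines were low there and RPMI8226 was close to 0. The region at ZBTB11, 4.46 kb away (chr3:101644019-101644426), had the opposite order in the authors' deposited table, with -1.48 in RPMI8226, -0.65 in KMS-11 and -0.31 in KMS-12. The means of ZBTB38, ZBTB16 and ZBTB11 were -0.86 ± 0.71, -0.81 ± 0.66 and -0.81 ± 0.61 (SD, n = 3 lines), so a similar mean came from different lines. ZBTB40 (chr1:22541192-22541359, outside the gene) was even across lines, at -0.84 ± 0.21 (SD, n = 3 lines). Its evenness involves recurring values, found in 178 regions for KMS-11 and in 175 for KMS-12. ZBTB10 had regions 49.1 kb (chr8:80435995-80436461, -0.69 ± 0.16) and 108 kb away (chr8:80377114-80377921, -0.50 ± 0.44; SD, n = 3 lines). The nearer was at or below -0.5 in all 3 lines, and the farther one was near 0 in KMS-11, at -0.05 in the authors' deposited table.

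Regions at genes of KRAB zinc finger proteins numbered 18, each at its own gene, with a median mean of -0.62. The 37 regions at the other zinc finger genes had a median of -0.81. These genes were marked as KRAB genes from general knowledge after the values had been seen, so this is a description without a test. RPMI8226 was the lowest line in 8 of the 18 (44.4%) and in 6 of the other 37 (16.2%). KMS-11 values found in at least 10 regions were also more frequent at the KRAB genes, in 14 of 18 (77.8%) against 16 of 37 (43.2%).

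Among the genes marked as KRAB genes the lowest mean was at ZNF157, 45.2 kb from its region (chrX:47324967-47325334). The authors' deposited table gave it -0.20 (KMS-11), -2.35 (KMS-12) and -0.86 (RPMI8226), with KMS-12 far below the others. The mean was -1.14 with all lines and -0.53 without KMS-12. ZNF695 held a region inside the gene (chr1:246960103-246960459), with -0.79 (KMS-11), -0.91 (KMS-12) and -1.40 (RPMI8226) in the authors' deposited table. It was among the 12 members at or below -0.5 in all lines, with a mean of -1.03 ± 0.32 (SD, n = 3 lines). The pair of KMS values at ZNF695 also stood at ZFP3 and at ZNF732 (chr4:306582-306890), and in 37 regions of the table in all. What differed between these 3 members was RPMI8226, from -1.40 to -0.11 in the authors' deposited table. ZNF41 (chrX:47501403-47501889, 18.2 kb away) was at -0.86 ± 0.32 and ZNF34 (chr8:144767481-144768409, 3.82 kb away) at -0.64 ± 0.19 (SD, n = 3 lines), both at or below -0.5 in all lines. At ZNF34 the KMS-12 value only just passed that threshold, at -0.505 in the authors' deposited table.

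The remaining KRAB genes had means between -0.76 and -0.53. ZNF705A (chr12:8197878-8198219) was low in KMS-11, at -1.63 in the authors' deposited table, the lowest KMS-11 value of any member. Its KMS-12 value in the authors' deposited table was -0.06. ZNF33B, ZNF684 (chr1:40584119-40584375), ZNF680 (chr7:64599308-64599636), ZNF92 (chr7:65258715-65259159) and ZNF112 (chr19:44344273-44344553) followed with means from -0.75 to -0.62. Next were ZNF732, ZNF37A, ZNF772 (chr19:57465813-57466127) and ZNF783, with means from -0.60 to -0.59. The ZNF783 region (chr7:149355456-149355936), 70.5 kb from that gene, covered a tRNA gene, TRC-GCA13-1. The last were ZNF484 (chr9:92872121-92872613, -0.57), ZNF138 (chr7:64774434-64774737, -0.55), ZNF875 and ZFP57, the keeper of imprinting marks (chr6:29677116-29677574, -0.54 ± 0.19, SD, n = 3 lines). Of 24 genes for KRAB corepressors and heterochromatin proteins, TRIM28 and SETDB1 among them, 0 had a region in the table, where 14.4% of all protein-coding genes had one. No test was made of this count.

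**Figure D4:**
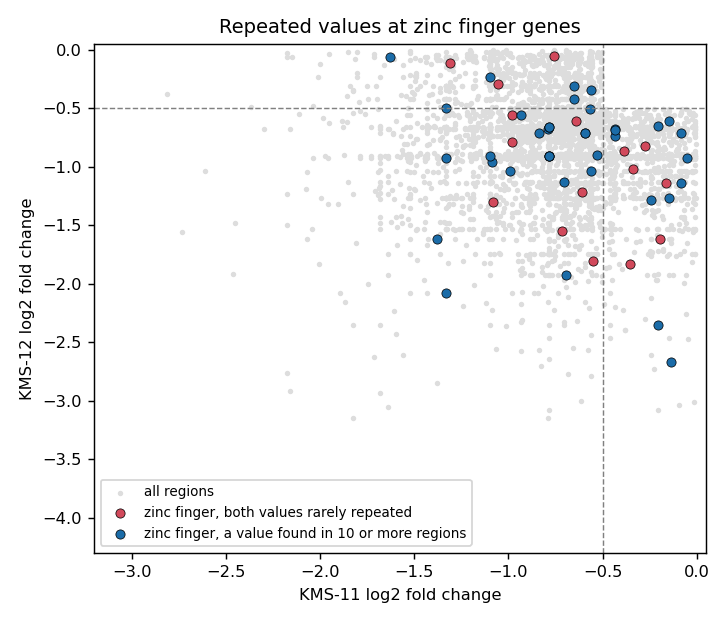
KMS-12 against KMS-11 log2 fold change for all regions (grey) and the 55 zinc finger regions, coloured by whether either value is found in 10 or more regions of the table (39 regions, blue) or not (16 regions, red). Dashed lines mark -0.5, and several blue points share 1 KMS-11 value, such as the 5 at -0.79.

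Outside the BTB group and the genes marked here as KRAB genes, the lowest mean was at ZNF738. It is a zinc finger gene in a cluster on chromosome 19, with 9 other zinc finger genes within 500 kb. Its KRAB status was not checked against protein domains, and its mean was lower than that at ZNF157. The region lay inside the gene (chr19:21385070-21385241) and was 171 bases wide. The authors' deposited table gave -0.14 (KMS-11), -2.67 (KMS-12) and -1.07 (RPMI8226), the widest spread of any member. The mean was -1.29 ± 1.28 (SD, n = 3 lines), and -0.60 without KMS-12.

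A region 33.7 kb from ZNF280B (chr22:22450418-22450767) lay inside IGL, the immunoglobulin lambda locus, and overlapped IGLV7-35, a variable segment pseudogene. ZNF280B sits within that locus. In the authors' deposited table the region had -1.33 (KMS-11), -0.93 (KMS-12) and -0.63 (RPMI8226). All 3 lines were at or below -0.5, with a mean of -0.96 ± 0.35 (SD, n = 3 lines). The same KMS-11 value recurred at the second ZBTB9 region and at ZNF236 (chr18:76740424-76740679), and in 60 regions of the table. The KMS-12 value at ZNF280B is found in 108 regions.

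The most even low region was 48.3 kb beyond ZNF365, a gene for a protein of genome stability (chr10:62528536-62528783). It had -1.09 (KMS-11), -0.96 (KMS-12) and -0.92 (RPMI8226) in the authors' deposited table. Its mean was -0.99 ± 0.09 (SD, n = 3 lines), the smallest SD of the 55, and it was the 1 member with all lines at or below -0.9, as were 90 of all regions (2.34%). Its evenness involves a recurring KMS-11 value, found in 12 regions. A second ZNF365 region, inside the gene 10.1 kb after its start (chr10:62384135-62384718), was uneven. The authors' deposited table gave it -0.27 (KMS-11), -0.82 (KMS-12) and -1.19 (RPMI8226), and the mean was -0.76 ± 0.46 (SD, n = 3 lines). The regions were 144 kb apart.

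ZNF609, which encodes a cofactor of the cohesin loader in mouse neural progenitors, held a region deep inside the gene (chr15:64571820-64572267). The authors' deposited table listed -0.79 (KMS-11), -0.68 (KMS-12) and -1.47 (RPMI8226), the last being lowest. Its mean was -0.98 ± 0.43 (SD, n = 3 lines). Its KMS values recur, in 46 regions for KMS-11 and in 101 for KMS-12. A region inside the readthrough gene ZNF511-PRAP1 also lay inside CALY, a gene for a dopamine receptor-interacting protein (chr10:133324263-133324878), so either name applies. It had -0.35 (KMS-11), -1.83 (KMS-12) and -0.78 (RPMI8226) in the authors' deposited table.

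ZNF532, whose fusion to NUTM1 occurs in NUT carcinoma, a tumour driven by BET protein complexes, had a region 29.1 kb beyond the gene (chr18:59015543-59015906) that overlapped the pseudogene OACYLP. The authors' deposited table gave -0.69 (KMS-11), -1.92 (KMS-12) and -0.23 (RPMI8226). ZNF703, an oncogene of luminal breast cancer, was the nearest gene to a region 293 kb away (chr8:37401788-37402337) with -0.55, -1.80 and -0.41 in the same order in the authors' deposited table. In both, KMS-12 was far below the other lines. The means were -0.95 ± 0.88 and -0.92 ± 0.77 (SD, n = 3 lines), and -0.46 and -0.48 without KMS-12. A region 111 kb from ZNF827, whose product binds the NuRD complex at telomeres (chr4:146049789-146050095), was more even, at -0.91 ± 0.19 (SD, n = 3 lines) and at or below -0.5 in all lines. Its KMS values recur too, in 109 regions for KMS-11 and in 213 for KMS-12.

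ZSCAN10, a pluripotency factor gene and the only ZSCAN gene with a region, held it 3.19 kb after its start (chr16:3095971-3096232). The authors' deposited table gave -0.71 (KMS-11), -1.13 (KMS-12) and -0.85 (RPMI8226). Its mean was -0.89 ± 0.21 (SD, n = 3 lines), with all lines at or below -0.5. The 4 ZFP regions had a median of -0.13 in RPMI8226 and of -0.90 in KMS-12 by the authors' deposited table. RPMI8226 was the highest line in each of them but ZFP57, where it was the lowest. They lay at ZFP42, the pluripotency marker REX1 (chr4:187722853-187723206, 273 kb away), at ZFP3, at ZFP57 and at ZFPM2, a cofactor of GATA factors (chr8:105885276-105885877, 80.7 kb away). Their means ran from -0.76 to -0.51.

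ZNFX1, an antiviral RNA sensor, was the only gene with 3 regions. Inside the gene one lay 0.691 kb from its end (chr20:49246591-49246860), and the authors' deposited table gave it -0.43 (KMS-11), -0.69 (KMS-12) and -0.54 (RPMI8226). Another lay inside it (chr20:49272616-49272948), with -1.31 (KMS-11), -0.11 (KMS-12) and -1.16 (RPMI8226) in the authors' deposited table. The last was 19.6 kb outside (chr20:49297615-49297988), with -0.56, -1.03 and -0.34 in the authors' deposited table. The region with KMS-12 near 0 was thus flanked, at 25.8 and 24.7 kb, by regions where KMS-12 was the lowest line. The means were -0.55 ± 0.13, -0.86 ± 0.65 and -0.64 ± 0.36 (SD, n = 3 lines).

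ZNF800, a repressor of endocrine differentiation, had regions 3.56 kb (chr7:127396264-127396547) and 21.2 kb (chr7:127413905-127414418) upstream of the gene. The authors' deposited table gave the nearer -0.98 (KMS-11), -0.55 (KMS-12) and -0.32 (RPMI8226). The farther had -1.05, -0.29 and -1.07 in the authors' deposited table. KMS-11 was low in both, while RPMI8226 was low in the farther region alone. Their means were -0.62 ± 0.34 and -0.80 ± 0.44 (SD, n = 3 lines). ZNF644, a partner of the histone methyltransferases G9a and GLP, had a region 52.2 kb beyond the gene (chr1:90862877-90863072, -0.78 ± 0.57) and a higher one inside it (chr1:90959666-90959867, -0.51 ± 0.26, both SD, n = 3 lines). The KMS values of both recur. Those of the region beyond the gene are found in 61 (KMS-11) and 124 (KMS-12) regions, and those of the region inside in 47 and 50.

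The other members lay at ZNF236 (-0.88), ZNF474 (chr5:122137664-122137968, -0.86), ZNF618, whose product binds UHRF2 (chr9:113994190-113994556, -0.81), ZNF804B (chr7:89002987-89003913, -0.61), ZNF385B (chr2:179676790-179677673, -0.60) and ZNF148 (chr3:125381792-125382016, -0.59). ZNF638, a silencer of retroviral DNA, had a region 48.9 kb away (chr2:71282465-71282868) with a mean of -0.54. ZNF474 was at or below -0.5 in all lines. At ZNF385B RPMI8226 was at -0.04 and the KMS lines at -0.98 and -0.79 in the authors' deposited table. The means nearest to 0 were at ZNF217, an oncogene amplified in breast cancer (chr20:53555250-53556198, -0.45 ± 0.31), inside ZNF469, a gene of the cornea (chr16:88238767-88239015, -0.50 ± 0.27), and at the farther ZBTB10 region. ZNF217 also had the widest region of the 55, at 948 bases, against a median of 356 for the members and 392 for all regions.

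Of 23 genes of these prefixes listed for described roles in lymphoid and related cells, 4 had a region, namely ZBTB38, ZNFX1, ZBTB16 and ZNF217, against 14.4% of all protein-coding genes. They had 6 regions with a median mean of -0.73, and 0 of the 6 were at or below -0.5 in all lines, against 24.8% of all regions. C2H2 genes with other names were compared as the most similar set, and 20 of 64 had a region. Of zinc finger genes 7.93% had one, and of all protein-coding genes 14.4%. The 20 genes had 30 regions, with a median mean of -0.70. Of these regions, 6 were at or below -0.5 in all lines, against 24.8% of all regions. Their lowest regions were inside MECOM, a haematopoietic regulator (chr3:169227900-169228323, -1.02 ± 0.71), and 14.6 kb from SALL4, a stem cell factor (chr20:51817166-51817378). A region inside KLF12, a repressor, followed (chr13:74061953-74062361, -0.96 ± 0.48; SD, n = 3 lines for both means). Several of the 30 regions lay far from the gene, such as 491 kb from ZEB2, 465 kb from KLF6 and 448 kb from BCL11B. ZEB2 and BCL11B had no other region, so there the name is only the nearest label. Over all regions 18.4% were over 100 kb from their gene. The part of such distant labels in the 20 of 64 was not tested. Of 10 genes for POZ corepressors and their partners 5 had a region, against the same 14.4% of all protein-coding genes. The 5 genes had 12 regions, with a median mean of -0.74. The lowest of these was 273 kb from BCOR (chrX:39777653-39778260, -1.09 ± 0.38), followed by a region inside TBL1X (chrX:9644390-9644707, -0.89 ± 0.48; SD, n = 3 lines). Most of the 12 regions belonged to TBL1XR1 and BCOR. Some of them lay far away, up to 451 kb from TBL1XR1 and 294 kb from BCOR, while others were nearer or inside BCOR. The medians of these sets, -0.70 and -0.74, lay on either side of the -0.71 of all regions, and no difference between sets was tested.

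Of the 12 members at or below -0.5 in all lines, 2 were also at or below -0.75 in all lines, ZNF695 and the even ZNF365 region, and 0 at or below -1, against 242 and 39 of all regions. A fold within 0.05 of -0.5 was found in 10 of 55 members (18.2%) and in 21.1% of all regions. Leaving out a line left the limma call standing in 30 of 55 members without RPMI8226 (54.5%), in 24 without KMS-12 (43.6%) and in 20 without KMS-11 (36.4%). Over all 3838 regions the calls left were 2112, 1997 (52.0%) and 1310 (34.1%). In 8 members (14.5%) the call held whichever line was left out, against 16.9% of all regions.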

How the data were processed

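The 6 ATAC-seq libraries were grouped by the labelled treatment, with the cell line pairing DMSO and JQ1. The authors deposited 1 table of log2 fold changes per line and the number of lines that share a region, a column of another kind. In each of the 3838 regions that number was checked to match the lines with a fold of -0.5 or less. The authors used DESeq2 and MACS2, and the builds were GRCh38.p13 and hg38, per the submitters' processing notes, which give no roles. Base 2 is an assumption, the scale on which the authors' tool DESeq2 reports. No aligner, filter, read shift or scaling is named in the sources used here.

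Regions were assigned with the RefSeq gene table (GRCh38.p14), used for names, neighbours and distances. A region inside several protein-coding genes was a member if any symbol met the rule, which concerned 1 region. Starts and promoter sequences came from the RefSeq promoter table. Mean and SD were taken over 3 lines. limma 3.58.1 (R 4.3.3) tested the mean against 0 over all regions, with Benjamini-Hochberg adjustment at 0.05. The code was also run on simulated folds, most of them centred on 0 and all with the same spread. The selected folds of this table differ from these, so that run lends no support to the calls here. The prior degrees of freedom of the limma fit were infinite, so each region had the same standard error, 0.262. A call in that fit depends on the mean alone and takes no account of the spread between lines. An exact sign-flip test of 3 lines cannot go below p = 0.25.

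Members, gene lists and tests were chosen with earlier results of these data known. Regions to name were set by rule: the 12 lowest means, genes with several regions, members with all lines at or below -1, the 3 highest means, members within 1 kb of a gene end, the lowest of each symbol prefix and up to 4 of each list. The other members were named after their values were seen, so that all 55 are accounted for.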

Additional observations from a re-analysis of the deposited data

How the results depend on the processing

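The median of the mean over members, -0.75, was -0.59 without KMS-12, and ran from -0.77 to -0.59 as each line was left out. Under the other 6 settings it stayed within the 0.111 SD of the line medians. Fitted again on the regions whose KMS values are each shared by fewer than 10 regions, limma called 12 of the 16 members left. In the fit over all regions 15 of these 16 were called, against 1116 of all 1301 such regions (85.8%). For the fit on these regions alone the calls over all of them were not counted. Whether the members lost calls more often than other regions is therefore unknown. The count of 50 ran from 20 to 30 with a line left out. It was 50 with robust variances. The member count of 55 was 19 with containing genes only and 34 with lncRNA genes eligible. The 12 members at or below -0.5 in all lines became 2 at -0.75, 0 at -1, 4 with containing genes only and 1 of 16 among rarely repeated values. For the median and for this count that setting was chosen after seeing the data, as was one that kept the 48 regions within 100 kb of their gene. Each fold is a difference within a line, so the limma test is already paired by line. Leaving out a line ended the limma call of 30, 26 and 20 single members without KMS-11, KMS-12 and RPMI8226. No sign could change, since every fold is below 0. The cause of these changes was not tested, apart from fewer regions and fewer lines. Depth is unknown.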
